A study of Rattus norvegicus with 6 samples.

Results

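Apolipoproteins are the protein coats of the particles that carry lipid in blood, and the liver makes most of them. Hepatocytes build very low density lipoprotein (VLDL) by loading triglyceride onto apolipoprotein B, and they secrete the proteins around which high density lipoprotein (HDL) forms. Smaller exchangeable apolipoproteins then move between particles, where they activate or inhibit lipases and bind receptors. The 10 genes described here, Apoa1, Apoa2, Apoa4, Apoa5, Apob, Apoc2, Apoc3, Apoe, Apom and Mttp, were taken by their symbols from 19616 genes with expression values. Each symbol matched 1 row, and all 10 genes passed the filter on low values.

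The study asked which transcripts differ between fibrotic and normal rat liver. Liver RNA depleted of ribosomal RNA was sequenced from male Sprague-Dawley (SD) rats, with 1 library per rat. The FL group (rats FL2, FL5 and FL12, labelled fibrosis) had been injected intraperitoneally with CCl4 (carbon tetrachloride, a solvent toxic to hepatocytes) mixed with olive oil, in a volume of 2 mL/kg given 2 times weekly over 5 weeks. The CL group (rats CL5, CL6 and CL7, labelled normal) had received olive oil in the same volume, so both groups were given oil. The age of the rats was not given in the sources used here, and whole liver tissue was used, with its mixture of cell types. Expression was given as FPKM, a count of fragments scaled to the length of the transcript and to the size of the library, so that levels can be compared between genes.

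The labels were checked first. Col1a1, a chain of type I collagen that accumulates in scar tissue, stood at 2.12, 3.77 and 2.12 FPKM in the CL rats and at 17.0, 101 and 73.7 FPKM in the FL rats (values of single rats follow the order CL5, CL6, CL7 and FL2, FL5, FL12). All 3 FL rats lay above the CL rats, with FL2 the lowest of them, and the log2 fold change was 4.24 (SE 0.60, adjusted p = 0.00519). Acta2, the smooth muscle actin of activated stellate cells, stood at 3.85, 2.62 and 2.68 FPKM in the CL rats and at 3.87, 17.3 and 9.59 FPKM in the FL rats. FL2 was barely above CL5, and Acta2 did not pass the test (log2 fold change 1.496, SE 0.47, adjusted p = 0.0609). The tissue was rich in hepatocyte transcripts: Alb, which encodes albumin, ranged from 31431 to 33392 FPKM in the CL rats and from 24149 to 25209 FPKM in the FL rats.

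Of the 10 genes, Mttp was upregulated in the FL group, Apoa4 and Apoc2 were downregulated, and the other 7 did not pass the test, which was an adjusted p under 0.05 in limma. The upregulated share was 1 of 10, beside 16.9% of the 14864 genes tested, and the downregulated share was 2 of 10, beside 1.94%. In either direction, 3 of 10 passed, beside 18.9% of all genes. With the further limit of a 2-fold change that the study used, 1 of 10 passed (Apoa4), beside 10.2% of all genes. The FL and CL values did not overlap for 7 of the 10 genes, and the same held for 40.5% of all genes tested. Apoa1 and Mttp were higher in every FL rat than in any CL rat, and Apoa2, Apoa4, Apob, Apoc2 and Apoc3 were lower. The median log2 fold change of the 10 genes was -0.43, and that of all genes tested was 0.29.

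Scaling matters for these directions. The values were compared without scaling between rats, and the median of 0.29 over all genes became 0.08 with median scaling, -0.04 with quantile normalization, 0.26 after scaling to the sum without the 10 highest genes and 0.31 after scaling to hepatocyte markers. Over all genes, 2518 were upregulated and 288 downregulated without scaling. Median scaling gave 1301 and 533, and quantile normalization 778 and 536. Relative to the median of all genes, the log2 differences were 0.38 for Mttp, 0.44 for Apoa1, -0.96 for Apoc2, -1.19 for Apoc3 and -1.89 for Apoa4. The sign of the log2 fold change held under all 4 scalings for 8 of the 10 genes, the exceptions being Apom with median scaling (-0.09) and Apoe with quantile normalization (0.15). In whole liver RNA, fewer cells of a type and less RNA per cell cannot be told apart.

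**Figure D1:**
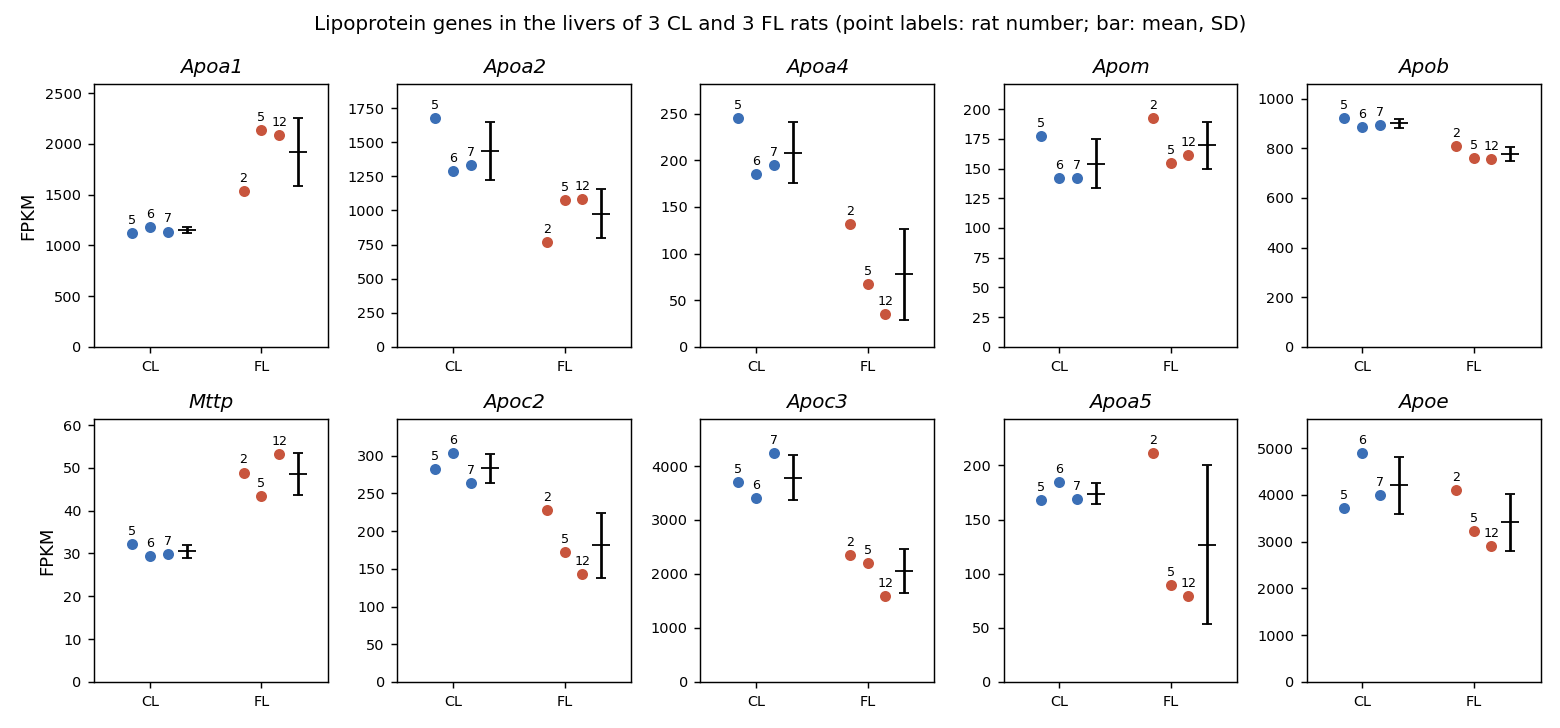
FPKM (vertical axes, starting at 0 and differing between panels) of the 10 lipoprotein genes in each of 3 CL rats (blue) and 3 FL rats (red), with the rat's number above each point and the group mean and SD as a black bar. The FL points lie above all CL points for Apoa1 and Mttp, below them for Apoa2, Apoa4, Apob, Apoc2 and Apoc3, and the ranges of the groups overlap for Apoa5, Apoe and Apom.

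The levels of the genes spanned a wide range. Apoe and Apoc3 were the most abundant in the CL group, at 4208 ± 609 and 3785 ± 420 FPKM (mean ± SD, n = 3). The values of this pair overlapped between rats. Apoa2 (1433 ± 213 FPKM), Apoa1 (1149 ± 30.4 FPKM) and Apob (901 ± 19.1 FPKM) came next, and each of these stood apart from its neighbour in the order without overlap between rats. Apoc2, Apoa4, Apoa5 and Apom followed at 283 ± 19.5, 208 ± 32.3, 174 ± 9.49 and 154 ± 20.5 FPKM, where Apoc2 was clear of Apoa4, the lowest Apoa4 value met the highest Apoa5 value at 185 FPKM, and Apoa5 and Apom overlapped. Mttp was the lowest, at 30.5 ± 1.56 FPKM. In the FL group the order changed in its upper part: Apoe stood at 3415 ± 615 FPKM, Apoc3 at 2046 ± 408 FPKM and Apoa1 at 1919 ± 334 FPKM, the last 2 with overlapping values. Apoa2 (977 ± 180 FPKM) and Apob (777 ± 29.3 FPKM) also overlapped there. Apoa4 (77.9 ± 48.7 FPKM) was below Apoc2 (182 ± 43.0 FPKM), Apom (169 ± 20.2 FPKM) and, with overlap between rats, Apoa5 (127 ± 73.4 FPKM). Mttp (48.5 ± 4.90 FPKM) overlapped with Apoa4 in that group, because FL12 had 35.7 FPKM of Apoa4 and 53.3 FPKM of Mttp. Among all genes, Apoe ranked between 5 and 7 in every rat.

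Of the 4 surface proteins of HDL, Apoa4 was downregulated and the other 3 did not pass the test. Apoa1 (ENSRNOG00000045679, chromosome 8) encodes the main protein of HDL, which takes up cholesterol from cells and activates the enzyme that esterifies it. Its level was 1126, 1183 and 1136 FPKM in the CL rats, and 1535, 2135 and 2088 FPKM in the FL rats. Every FL rat was above every CL rat, with FL2 the closest to the CL group. The log2 fold change was 0.73 (SE 0.27, 95% interval 0.10 to 1.36), and the adjusted p of 0.1001 did not pass the threshold. Apoa1 passed in 4 of 16 alternative settings, whose adjusted p ranged from 0.0203 to 0.306, the lowest being that without FL2 (log2 fold change 0.88).

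Apoa2 (ENSRNOG00000003500, chromosome 13) encodes the second protein of HDL by amount. It stood at 1677, 1287 and 1335 FPKM in the CL rats and at 769, 1077 and 1083 FPKM in the FL rats. All FL values were below the CL values, so Apoa2 and Apoa1 lay on opposite sides of the CL group, but FL2 was the rat farthest from the CL group for Apoa2. The log2 fold change of -0.56 (SE 0.27, adjusted p = 0.175) did not pass the test, nor did it in any of the 16 alternatives (0.107 to 0.508).

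Apoa4 (ENSRNOG00000055909, chromosome 8) encodes an apolipoprotein of chylomicrons and HDL, made in the intestine and, in rodents, also in the liver. Its level was 245, 185 and 194 FPKM in the CL rats, and 131, 66.9 and 35.7 FPKM in the FL rats. All 3 FL rats were below the CL rats, and they differed among themselves, FL2 being nearest to the CL group and FL12 lowest. Apoa4 was downregulated with a log2 fold change of -1.60 (SE 0.41, 95% interval -2.55 to -0.66, adjusted p = 0.0331), a level 3.04-fold lower. The call was kept in 8 of 16 alternatives and lost with no filter, quantile normalization or no trend, with adjusted p from 0.00523 (without FL2, log2 fold change -2.08) to 0.0981 (without CL5, -1.48). It was also lost without CL6 (0.0742), CL7 (0.0945), FL5 (0.0958) or FL12 (0.0549). In rank among all genes, Apoa4 was between 137 and 181 in the CL rats, and 250, 475 and 892 in FL2, FL5 and FL12.

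Apom (ENSRNOG00000000850, chromosome 20) encodes an HDL protein of the lipocalin family that carries sphingosine 1-phosphate. It ranged from 142 to 178 FPKM in the CL rats and from 155 to 192 FPKM in the FL rats, and the groups overlapped. Its log2 fold change of 0.14 (SE 0.16, 95% interval -0.23 to 0.51, adjusted p = 0.560) did not pass the test.

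Of the pair of genes at the core of VLDL assembly, Mttp was upregulated and Apob did not pass the test. Apob (ENSRNOG00000005542, chromosome 6) encodes the large protein that stays with a VLDL particle from assembly to uptake. Its level was 922, 884 and 896 FPKM in the CL rats and 811, 762 and 759 FPKM in the FL rats. The groups did not overlap and the values within each group were close, but the log2 fold change of -0.21 (SE 0.20, adjusted p = 0.478) did not pass. Most of that SE came from the variance prior of the model, described below for abundant genes. Mttp (ENSRNOG00000010655, chromosome 2) encodes the microsomal triglyceride transfer protein, which lipidates apolipoprotein B in the endoplasmic reticulum. It stood at 32.3, 29.4 and 29.9 FPKM in the CL rats and at 48.9, 43.5 and 53.3 FPKM in the FL rats. Every FL rat was above every CL rat by more than the range within the CL group. Mttp was upregulated with a log2 fold change of 0.66 (SE 0.12, 95% interval 0.39 to 0.94, adjusted p = 0.0103), a level 1.58-fold higher. This was the firmest call among the 10 genes, kept in 15 of 16 alternatives (adjusted p 0.00936 to 0.0504) and lost with median scaling, where the log2 fold change was 0.44. The ratio of Apob to Mttp FPKM was 28.5, 30.1 and 30.0 in the CL rats and 16.6, 17.5 and 14.3 in the FL rats. The FL ratios were all below the CL ratios.

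Among the modulators of lipases and receptors, Apoc2 (ENSRNOG00000018402, chromosome 1) encodes the cofactor that lipoprotein lipase needs. It stood at 282, 304 and 265 FPKM in the CL rats and at 228, 173 and 143 FPKM in the FL rats. All FL rats were below the CL rats, and FL2 was nearest to them. Apoc2 was downregulated with a log2 fold change of -0.67 (SE 0.19, 95% interval -1.12 to -0.22), at an adjusted p of 0.0490 that only just passed. The call was kept in 5 of 16 alternatives (adjusted p 0.0110 to 0.139), and a change of the pseudocount to 1 or 0.01 was enough to lose it (0.0516 and 0.0502). It was lost without any of CL5 (0.114), CL6 (0.139), CL7 (0.115), FL5 (0.128) or FL12 (0.127), and kept without FL2 (log2 fold change -0.84, adjusted p = 0.0110).

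Apoc3 (ENSRNOG00000047503, chromosome 8) encodes an inhibitor of lipoprotein lipase and of the uptake of remnant particles. Its level was 3709, 3409 and 4238 FPKM in the CL rats and 2356, 2197 and 1584 FPKM in the FL rats. The groups lay apart by more than the range within either group. The log2 fold change was -0.90 (SE 0.35, 95% interval -1.72 to -0.09), with an adjusted p of 0.111 that did not pass. The adjusted p was under the threshold in 4 of 16 alternatives, among them without FL2 (0.0378), and ranged from 0.0325 to 0.369.

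For Apoc3 and other very abundant genes the standard error came mainly from the prior of the model, which follows the mean level. The prior SD on the log2 scale was 0.56 for Apoc3, 0.43 for Apoa1 and 0.35 for Apob. The SD between rats within groups was 0.24, 0.19 and 0.04. For Mttp the prior SD was 0.17 and the SD between rats 0.12. With 1 prior for all levels (limma without trend), Apoa1 passed at an adjusted p of 0.0397 (range over the alternatives 0.0203 to 0.306) and Apoc3 at 0.0339, whereas Apoa4 (0.0659) and Apoc2 (0.0722) did not pass. Apob did not pass there either (adjusted p = 0.256).

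Apoa5 (ENSRNOG00000018436, chromosome 8) encodes a liver protein that promotes triglyceride hydrolysis by lipoprotein lipase. It stood at 168, 185 and 169 FPKM in the CL rats and at 211, 89.4 and 79.7 FPKM in the FL rats. FL2 was above every CL rat while FL5 and FL12 were well below, so the groups overlapped and the log2 fold change of -0.60 (SE 0.34, adjusted p = 0.238) did not pass. Without FL2 it was -1.04 with an adjusted p of 0.00392, the lowest of a range that reached 0.537. Apoe (ENSRNOG00000018454, chromosome 1) encodes the ligand through which remnant particles bind receptors of the LDL receptor family, and it is made by hepatocytes and by macrophages. Its level was 3728, 4893 and 4001 FPKM in the CL rats and 4102, 3228 and 2915 FPKM in the FL rats. The groups overlapped, since FL2 exceeded CL5 and CL7, and the log2 fold change of -0.31 (SE 0.40, adjusted p = 0.608) did not pass.

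FL2 thus stood nearer to the CL group than FL5 and FL12 did for Apoa1, Apoa4, Apoa5, Apob, Apoc2, Apoc3 and Apoe, and farther from it for Apoa2 and Apom. Without FL2, 2 of the 10 genes were upregulated (Apoa1 and Mttp), 4 were downregulated (Apoa4, Apoa5, Apoc2 and Apoc3) and 3 passed the 2-fold limit. In that fit 21.5% of all genes tested were upregulated and 2.28% downregulated, also the highest shares with any rat left out. Leaving out any of the other 5 rats ended the calls of Apoa4 and Apoc2 and left 1 call, that of Mttp. FL2 also differed from FL5 and FL12 in the markers of stellate cells or myofibroblasts, whose summed FPKM was 66.3, 70.6 and 64.9 in the CL rats and 179, 486 and 450 in FL2, FL5 and FL12. Of those 6 markers 4 were upregulated and 0 downregulated, Col3a1 was the most abundant, and no marker of the list was at 0 in any rat. Of 8 hepatocyte markers 0 passed in limma (0 also at an unadjusted p under 0.05), but the SEs of the most abundant ones came mainly from the prior, which for Alb had an SD of 1.69 beside an SD between rats of 0.04, so this says little about stability. Alb and Ttr were lower in every FL rat than in any CL rat, Tf was higher, and the other 5 overlapped. Their summed FPKM was 54534, 51950 and 52868 in the CL rats and 51382, 45812 and 45613 in the FL rats, with Alb the most abundant. In FL2, Hpx (hemopexin) stood at 7001 FPKM and Fgb (fibrinogen beta chain) at 3803 FPKM, both plasma proteins of the acute phase, against at most 2759 and 1786 FPKM in any other rat. The part of these differences in the values of FL2 was not tested.

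Several of the genes lie side by side. In the GRCr8 assembly of RefSeq, where all 10 symbols matched, Apoa1, Apoc3, Apoa4 and Apoa5 follow each other on chromosome 8 with no other gene listed between them. None of the 10 genes overlaps another listed gene. Within this cluster Apoa1 was higher in all FL rats, Apoc3 and Apoa4 were lower in all FL rats, and Apoa5 overlapped. Of these genes only Apoa4 passed the test. The ratio of Apoa1 to Apoc3 FPKM was 0.304, 0.347 and 0.268 in the CL rats and 0.652, 0.972 and 1.32 in the FL rats. The FL ratios were all higher, and FL12 had more Apoa1 than Apoc3. For Apoa1 over Apoa4 the ratio was 4.60, 6.40 and 5.85 in the CL rats and 11.7, 31.9 and 58.5 in the FL rats, again without overlap. A ratio within a rat does not depend on scaling by a single factor. The 5 ratios examined, with that of Apob to Mttp, were chosen after the values were seen and are given as a description. Those of Apoc3 to Apoc2 and of Apoe to Apoc1 overlapped between the groups.

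On chromosome 1, Apoc2, Apoc4, Apoc1 and Apoe likewise follow each other with no other gene listed between them. Apoc1, which encodes a small inhibitor of receptor uptake, stood at 1596, 1941 and 1556 FPKM in the CL rats and at 1626, 814 and 815 FPKM in the FL rats. FL2 lay among the CL rats while FL5 and FL12 lay far below, and Apoc1 did not pass (log2 fold change -0.72, SE 0.34, adjusted p = 0.172). Apoc4 ranged from 185 to 258 FPKM in the CL rats and from 188 to 305 FPKM in the FL rats, with overlap (adjusted p = 0.892).

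Promoter sequences are shown for Apoa4 and Apoc2, the 2 downregulated genes, which lie in different clusters. The RefSeq table for GRCr8 held promoters for 5 of the 10 genes (Apoa4, Apoa5, Apoc2, Apoe and Apom), and the 250 bases before the start are printed 5′ to 3′. The Apoa4 window is chr8:55435529-55435778 on the + strand and the Apoc2 window is chr1:88462366-88462615 on the - strand. Capitals mark a TATA box.
Apoa4: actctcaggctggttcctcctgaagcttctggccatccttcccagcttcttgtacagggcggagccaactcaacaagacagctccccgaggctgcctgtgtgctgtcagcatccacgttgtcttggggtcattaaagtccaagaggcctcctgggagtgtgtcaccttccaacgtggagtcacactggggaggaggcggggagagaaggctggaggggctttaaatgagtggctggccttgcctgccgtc
Apoc2: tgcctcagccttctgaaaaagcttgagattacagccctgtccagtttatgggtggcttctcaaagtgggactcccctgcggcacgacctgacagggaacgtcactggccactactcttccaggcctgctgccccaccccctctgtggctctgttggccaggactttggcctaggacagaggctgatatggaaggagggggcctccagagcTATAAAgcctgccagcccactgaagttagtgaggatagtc
Both strands were searched for 3 motifs, which do not overlap each other in these windows. The TATA box was given the letters TATAAA. The half-site that nuclear receptors bind was given the letters AGGTCA. The core of sites for the factor HNF4 was given the letters CAAAGTCCA. The TATA box occurs in Apoc2, from 40 to 35 bases before the start, and is held by 12.9% of 33469 promoter windows of this length. Neither the half-site, held by 14.1% of the windows, nor the HNF4 core, held by 0.338%, is among the letters of the Apoa4 or Apoc2 window. Of the members with a window, Apoa5 holds the TATA box and the half-site.

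The remaining apolipoproteins gave 0 upregulated and 1 downregulated of 7 tested in limma, with the same counts at an unadjusted p under 0.05 (median log2 fold change -0.04). Apon was downregulated, at 99.2, 83.4 and 92.3 FPKM in the CL rats and 40.6, 62.0 and 47.2 FPKM in the FL rats. All FL rats were below the CL rats (log2 fold change -0.89, SE 0.17, adjusted p = 0.0127). Leaving out CL7 ended the call (adjusted p = 0.0516, the highest of 16 alternatives, from 0.00903). Clu (clusterin) was higher in every FL rat, at 334 to 398 FPKM against 271 to 328 FPKM, without passing the test (adjusted p = 0.200). In GRCr8 it overlaps Scara3 and Ppp2r1a-ps1, so its reads may be shared. Apof, Apoh and Saa4 overlapped between the groups, at adjusted p of 0.969, 0.281 and 0.959. Saa4, a constitutive serum amyloid A, stood at 204 FPKM in FL2 and at 56.1 to 103 FPKM in the other rats. Apod was listed at 0 in 5 rats and at 0.14 FPKM in FL2, and was not tested.

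Beyond the 10 genes, 5 lists of the pathway (these remaining apolipoproteins included) held 66 genes, of which 61 were tested. Of these, 9 were upregulated (14.8%) and 5 downregulated (8.20%), beside 16.9% and 1.94% of all genes. The median log2 fold change of these genes was 0.19, beside 0.29 for all genes.

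Of 15 genes of VLDL assembly and secretion, 2 were upregulated and 1 was downregulated (median 0.19). Apobec1, the deaminase that edits the Apob transcript to give the short apolipoprotein B, stood at 3.43, 2.59 and 2.39 FPKM in the CL rats and at 7.13, 11.8 and 6.57 FPKM in the FL rats. All FL rats were above the CL rats, and Apobec1 was upregulated in all 16 alternatives too (log2 fold change 1.53, SE 0.24, adjusted p = 0.00709). A1cf, the RNA-binding partner of that enzyme, stood at 96.9, 98.7 and 90.9 FPKM in the CL rats and at 59.5, 73.8 and 66.3 FPKM in the FL rats. It was downregulated without overlap (log2 fold change -0.53, SE 0.13, adjusted p = 0.0270), so the enzyme and its partner moved in opposite directions. A1cf kept its call in 11 of 16 alternatives and lost it without trend and without CL5, CL6, CL7 or FL12 (adjusted p up to 0.0891). Sort1 (sortilin), a sorting receptor that binds apolipoprotein B, rose from 2.55 ± 0.15 to 4.41 ± 0.52 FPKM (mean ± SD, n = 3; log2 fold change 0.76, adjusted p = 0.0132). Its call was lost with quantile normalization (adjusted p = 0.0917) and without FL5 (0.0534), the range starting at 0.00901.

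Of 8 tested genes of HDL formation and remodelling, 3 were upregulated and 1 was downregulated (median 0.25). Abca1, the transporter that loads lipid onto apolipoprotein A-I, stood at 19.9, 16.4 and 15.2 FPKM in the CL rats and at 25.6, 38.3 and 32.7 FPKM in the FL rats. Every FL rat was above the CL rats, with FL2 nearest (log2 fold change 0.89, SE 0.17, adjusted p = 0.0132), and the call was lost in 1 of 16 alternatives, without CL7 (adjusted p = 0.0568, range from 0.00683). Abcg1, which moves cholesterol to mature HDL, rose from 1.18 ± 0.19 to 3.26 ± 0.36 FPKM (log2 fold change 1.39, adjusted p = 0.00437). Pltp, the phospholipid transfer protein, rose from 5.39 ± 1.27 to 12.7 ± 0.92 FPKM (log2 fold change 1.25, adjusted p = 0.00496). Lipc, the hepatic lipase, went the other way, at 95.4, 79.9 and 78.2 FPKM in the CL rats and 48.7, 53.1 and 38.3 FPKM in the FL rats. The groups did not overlap, and Lipc was downregulated (log2 fold change -0.86, SE 0.16, adjusted p = 0.0110). Lcat, Scarb1, Bmp1 and Pdzk1 did not pass, and Lipg was under the filter.

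Of 11 tested lipases, lipase regulators and lipoprotein receptors, 2 were upregulated and 1 was downregulated (median 0.28). Lpl, the lipoprotein lipase itself, stood at 3.39, 2.86 and 3.00 FPKM in the CL rats and at 8.73, 13.8 and 24.5 FPKM in the FL rats. FL2 was the lowest of the FL rats and still far above the CL rats (log2 fold change 2.18, SE 0.32, adjusted p = 0.00595). Vldlr, a receptor for triglyceride-rich particles, was low throughout, at 0.36 ± 0.08 FPKM in the CL group against 1.46 ± 0.63 FPKM in the FL group. Its log2 fold change of 1.68 (adjusted p = 0.0164) is understated at such levels by the 0.1 FPKM added before the logarithm, and the call was lost with quantile normalization and without CL5, CL7 or FL5 (adjusted p up to 0.0664). Angptl4, a secreted inhibitor of lipoprotein lipase named after its values were seen, was 45.1 FPKM in FL2 and 15.1 and 8.19 FPKM in FL5 and FL12, around the 21.1 to 33.6 FPKM of the CL rats (adjusted p = 0.476).

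Some markers of cell types other than hepatocytes were upregulated, as were pathway genes such as Abcg1, Pltp, Lpl and Vldlr. Many other such markers overlapped between the groups. Of 7 macrophage markers 3 were upregulated (Cd68, Marco and Csf1r) and 0 downregulated. Their summed FPKM was 127, 116 and 121 in the CL rats and 280, 268 and 149 in the FL rats, Clec4f was the most abundant in the CL group, and no marker was at 0. The sums of the stellate cell or myofibroblast markers given above were higher in the FL group too. The part of these cells in the rise of Abcg1, Pltp, Lpl, Vldlr and the other upregulated pathway genes, Apobec1, Abca1, Sort1, Nr2f1 and Nr2f2 included, was not tested. Of 5 cholangiocyte markers 1 was upregulated (Spp1, the most abundant in the FL group). Their sums were 5.63, 10.5 and 6.25 FPKM in the CL rats and 12.5, 68.3 and 41.5 FPKM in the FL rats. Most of that rise was Spp1 itself, at 0.37, 2.81 and 0.74 FPKM in the CL rats and 7.34, 60.6 and 31.1 FPKM in the FL rats. Krt19, Krt7, Epcam and Sox9 overlapped between the groups. Of 4 endothelial markers tested 1 was upregulated (Stab2), with sums of 55.3 to 63.5 FPKM in the CL rats and 57.8 to 75.4 FPKM in the FL rats. Of the 4 lymphocyte, 3 erythroid, 2 enterocyte and 2 adipocyte markers tested, 0 passed in limma, and at an unadjusted p under 0.05 there was 1 erythroid marker lower and 1 enterocyte marker higher. The intestine also expresses Apoa4, Apob and Mttp, and adipose tissue Lpl. Enterocyte markers summed to at most 0.40 FPKM in the CL rats against 2.01 FPKM in FL12, the highest rat, and Muc2 was listed at 0 in 4 of the 6 rats. Adipocyte markers summed to 11.2, 13.9 and 12.1 FPKM in the CL rats and 17.1, 14.3 and 12.4 FPKM in the FL rats, nearly all of it Cidec, which lay between 10.5 and 16.6 FPKM. Adipoq lay between 0.34 and 0.74 FPKM, and Plin1 was listed at 0 in every rat but FL5, where it was 0.01 FPKM. The part of adipose tissue in the values of Lpl was not tested.

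Of 20 transcription factors known to act on apolipoprotein genes, 2 were upregulated and 1 was downregulated (median 0.18). Nr2f2 (COUP-TFII), a nuclear receptor that binds several apolipoprotein promoters, stood at 5.87, 6.80 and 6.05 FPKM in the CL rats and at 10.08, 10.93 and 10.95 FPKM in the FL rats. The groups were far apart (log2 fold change 0.76, SE 0.12, adjusted p = 0.00626), and the call held in all 16 alternatives. Its relative Nr2f1 was upregulated at a low level, from 0.43 ± 0.08 to 1.25 ± 0.56 FPKM (log2 fold change 1.28, adjusted p = 0.0342), and kept the call in 6 of 15 alternatives (adjusted p up to 0.176). Among the rats, only leaving out FL2 kept it. Rora, a nuclear receptor, stood at 12.8, 14.8 and 14.1 FPKM in the CL rats and at 7.82, 9.97 and 9.87 FPKM in the FL rats. It was downregulated without overlap (log2 fold change -0.59, SE 0.13, adjusted p = 0.0223), and the call was lost without trend and without CL6, CL7 or FL5 (adjusted p up to 0.0813). Hnf4a, a central activator of hepatocyte genes, stood at 125 ± 6.12 FPKM in the CL group against 108 ± 0.93 FPKM in the FL group, where the log2 fold change of -0.21 (SE 0.12, adjusted p = 0.239) did not pass. Nr0b2 (SHP), a repressor, was at 9.19, 2.51 and 1.46 FPKM in the CL rats and 12.9, 20.6 and 9.20 FPKM in the FL rats. The lowest FL value barely exceeded the highest CL value, and Nr0b2 missed the threshold (log2 fold change 2.02, SE 0.60, adjusted p = 0.0519). Hnf4a and Nr0b2 were named after their values were seen.

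**Figure D2:**
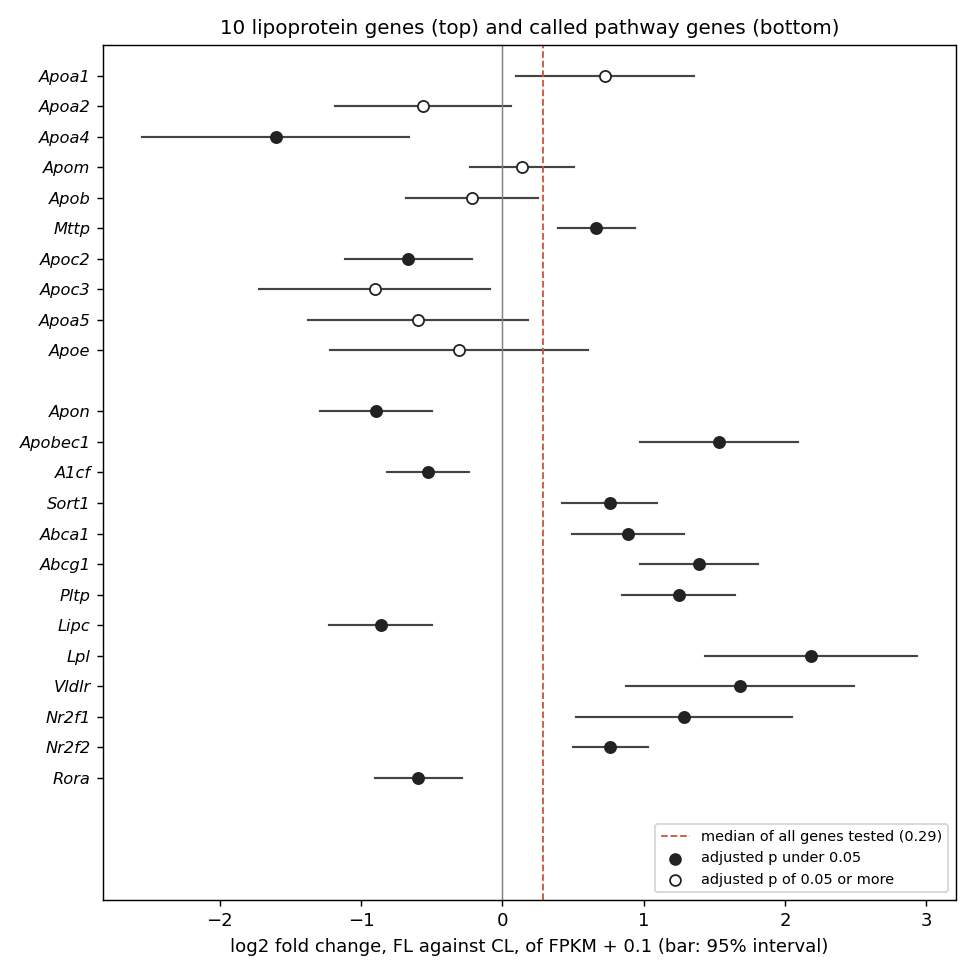
Log2 fold change of the FL against the CL group (horizontal axis, from FPKM + 0.1) with 95% interval for the 10 lipoprotein genes and 13 pathway genes with an adjusted p under 0.05, 3 rats a group. Filled points passed that threshold, and the dashed line marks the median of all genes tested, 0.29. Apoa4 has the lowest value (-1.60) and Lpl the highest (2.18) of those drawn.

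Together the 10 genes took 3.90%, 3.67% and 3.94% of the summed FPKM of the CL rats, and 3.36%, 3.64% and 3.27% of that of the FL rats. All FL shares were below the CL shares, by a narrow margin between CL6 and FL5. The sum itself depends on a few genes. Mup5 is a major urinary protein gene with near-identical copies, so reads matching several copies may be missing from FPKM of uniquely mapped reads. Its level was 24937, 48588 and 36722 FPKM in the CL rats and 55.0, 209 and 33.0 FPKM in the FL rats. Mup5 was the highest gene of CL6 and CL7, and Alb was that of CL5 and of the 3 FL rats. When the 10 highest other genes of each rat were left out of the sum, the shares were 5.65%, 5.72% and 6.01% in the CL rats and 4.50%, 4.76% and 4.27% in the FL rats. The gap between the groups was wider on that scale. Within the 10 genes, Apoa1 made up 9.16% to 9.46% of their summed FPKM in the CL rats and 14.8%, 21.5% and 23.5% in FL2, FL5 and FL12. Apoc3 made up 27.3% to 34.2% in the CL rats and 17.8% to 22.7% in the FL rats, and Apoe 30.9% to 39.1% and 32.5% to 39.5%.

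The genes nearest in pattern to each of the 3 called genes were found among 3035 genes whose mean reached 10 FPKM, by the Euclidean distance of centred log2(FPKM + 0.1) over the 6 rats. For Apoa4 they were Acnat2, an acyltransferase (distance 0.65), the sulfotransferase gene Sult1c3 (0.73) and AABR07069698.1, an uncharacterized gene (0.79). Acnat2 stood at 70.7, 57.2 and 62.0 FPKM in the CL rats and at 35.5, 21.3 and 6.66 FPKM in the FL rats, in the same order of FL rats as Apoa4. For Mttp the nearest were Eef2, a translation elongation factor (0.17), and the ribosomal protein genes Rpl18 (0.18) and Rpl23 (0.20). For Apoc2 they were Adhfe1, an alcohol dehydrogenase (0.17), the growth factor receptor gene Egfr (0.21) and Clpx, a mitochondrial chaperone (0.25).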

How the data were processed

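RNA from the livers of 3 CL and 3 FL rats was compared, each rat being a separate animal by its label. After trimming (FASTX-Toolkit) and alignment (TopHat2), the authors deposited FPKM computed from uniquely mapped reads, with 2 decimals and no pooling. The submitters' processing notes name GRCh38, whereas the identifiers are Ensembl's for the rat, so coordinates come only from RefSeq's GRCr8. Of the value columns, 2 belong to no sample of the series and were not used. Read counts were not used here, so the depth behind a value is unknown, and errors rest on the spread between rats. Between 0.250% and 1.69% of the values above 0 were identical in a pair of rats, so no library appeared to be present in 2 copies.

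FPKM are not counts, so log2(FPKM + 0.1) was compared with limma (variance prior with a trend on level) in the 14864 genes averaging 0.1 FPKM or more, with Benjamini-Hochberg adjustment over all of them. Fold changes are on this scale and understate low genes. Every adjusted p of a gene is limma's. The members and lists were chosen with earlier results of these data known. The genes named were the 10 members, the remaining apolipoproteins, pathway genes with an adjusted p under 0.05 (at most 6 a list), Col1a1, Acta2, Mup5, the highest gene of each rat and the nearest genes in pattern. The values of 1 pathway gene that passed are not reported here. Other genes named, cell markers aside, were chosen after their values were seen. Marker lists covered hepatocytes, macrophages, stellate cells or myofibroblasts, cholangiocytes, endothelial cells, lymphocytes, enterocytes, adipocytes and erythroid cells.

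In 16 alternatives, the pseudocount was set to 1 or 0.01, the filter was dropped or raised to a mean of 1 FPKM, rats were scaled by median, by quantiles, to the sum without the 10 highest genes or to hepatocyte markers, limma was run with no trend or with a robust prior, and each rat was left out in turn. The procedure was tested on simulated data. Software versions were limma 3.58.1 under R 4.3.3, and matplotlib 3.10.9, pandas 2.3.3 and numpy 2.4.6 under Python 3.11.15.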

Additional observations from a re-analysis of the deposited data

How the results depend on the processing

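The upregulated count of the 10 genes was 1 and became 0 with median scaling and 2 with a mean of at least 1 FPKM, without trend or with a robust prior. The downregulated count of 2 became 1 with a pseudocount of 1 or 0.01, with hepatocyte marker scaling or without trend, 0 with no filter or with quantile normalization, and 3 with a mean of at least 1 FPKM or a robust prior. The count past a 2-fold change was 1 and became 0 with no filter, with quantile normalization or without trend. The count of downregulated pathway genes was 5 and became 3 without trend, 7 with median scaling and 6 with sum scaling. That of upregulated ones was 9 and lay between 6 (quantile normalization) and 10 (hepatocyte marker scaling). Over all genes, 2518 were upregulated and 288 downregulated. Median scaling gave 1301 and 533, and quantile normalization 778 and 536. The mean share of the 10 genes in the summed FPKM was 3.84% in the CL group and 3.43% in the FL group, and 5.79% and 4.51% without the 10 highest other genes.

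With each rat left out in turn, the 10 genes gave 1 to 2 upregulated, 0 to 4 downregulated and 0 to 3 past a 2-fold change. All genes gave 938 to 3198 upregulated and 121 to 338 downregulated, and the pathway genes 6 to 10 upregulated and 1 to 10 downregulated. The highest value of each range came without FL2, except that of the upregulated pathway genes (without CL5). These fits used fewer rats, and for the other changes the cause was not tested. Among the 10 genes and the pathway genes, none that passed the test changed sign in the alternatives run for it. No paired analysis was possible because the groups share only 1 rat number, 5, which names different animals. The depth behind low values such as those of Vldlr and Nr2f1 is unknown, which limits their precision.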

Other observations

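Some genes with adjusted p between 0.05 and 0.1 were called in neither direction and are given as values only. They were chosen after their values were seen. Foxa2, a hepatocyte transcription factor, stood at 10.6, 22.7 and 20.8 FPKM in the CL rats and at 11.8, 6.65 and 6.83 FPKM in the FL rats. CL5 lay below FL2, so the groups overlapped (log2 fold change -1.06, SE 0.33, adjusted p = 0.0565). Lrp1, a remnant receptor, was higher in every FL rat, at 88.1 to 121 FPKM against 68.6 to 81.4 FPKM (log2 fold change 0.46, SE 0.15, adjusted p = 0.0704). P4hb, the partner subunit of the Mttp protein, was higher in every FL rat as well, at 256 to 420 FPKM against 204 to 246 FPKM (log2 fold change 0.59, SE 0.21, adjusted p = 0.0855).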
